A study of Rattus norvegicus with 40 samples.

Results

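The genes described here encode the protein subunits of the mitochondrial respiratory chain and the ATP synthase, together with proteins that help to build these complexes. They were chosen by name: every probe set (a group of short oligonucleotides that measures a transcript) whose annotated symbol begins with Ndufa, Ndufb, Ndufc, Ndufs, Ndufv, Sdha to Sdhd, Uqcr, Cox4 to Cox8 or Atp5, and that names a single gene. This gave 101 of 31099 probe sets and 90 of 14217 genes, each gene represented by its brightest probe set. Of the 90 genes, 76 encode subunits: 34 of complex I, 4 of complex II, 7 of complex III, 16 of complex IV and 15 of complex V. The other 14 are 10 assembly factors (Ndufaf1, Ndufaf3, Ndufaf4, Ndufaf5, Ndufaf7, Ndufaf8 and Sdhaf1 to Sdhaf4), 3 associated proteins (Cox7a2l, Ndufa4l2 and Atp5if1) and the pseudogene Cox6c-ps1. Ndufa4, named for complex I, was placed with complex IV, of which its protein is now counted as a subunit.

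Complexes I to IV carry electrons from NADH and succinate to oxygen, complexes I, III and IV pump protons across the inner mitochondrial membrane as they do so, and complex V, the ATP synthase, uses the proton gradient to make ATP. Most subunits are encoded in the nucleus; the few encoded by mitochondrial DNA are outside these symbols and were not analysed here. Several subunits of complex IV exist in a form made in most tissues and a form made mainly in muscle, lung or testis, and the choice between them is known to alter the enzyme's activity.

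The organs, whole lung and whole intestine, came from Wistar rat embryos, and their RNA was put on 40 arrays, 10 in each of 4 groups: lung at gestational day 20 (E20), lung at day 16 (E16), intestine at E20 and intestine at E16. By its title the study concerns the changes that ready both organs for birth. No embryo was treated, and all dams were timed-mated and killed with CO2 before the pups were delivered by caesarean section. Labelling started from 2 µg of RNA for lung and 1 µg for intestine, so organ and RNA amount cannot be told apart. Frozen tissue came from several siblings, and the labels leave unclear if RNA was pooled across embryos. The p-values therefore measure the spread between these arrays, which may be technical in part, and age cannot be told apart from litter if the arrays of an age share one.

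Values are log2 intensities, and a difference of 1 is a 2-fold change. The test was limma with a mean for each group, two-sided, with p-values adjusted by the Benjamini-Hochberg method over 14217 genes. A gene is said to have risen or fallen where the adjusted p was under 0.05 and the change at least 1.5-fold (0.585 on the log2 scale). Median array intensities ran from 220 to 264. The organ labels were borne out by marker genes: the 4 lung epithelial genes summed to 54431 to 70534 intensity units in lung E20 and 345 to 471 in intestine E20, and the 5 intestinal epithelial genes to 438 to 591 and 28392 to 44332. At E16 the same lists gave 2719 to 5613 (lung) and 290 to 457 (intestine) for lung epithelium, and 552 to 684 (lung) and 733 to 1832 (intestine) for intestinal epithelium; in intestine E16 only 1 of the 5 intestinal genes lay above the median of all values (7.89). Lung E16 arrays 5 and 9 held heart transcripts, with 9 cardiac genes summing to 31188 and 44018 units against a group median of 2128. Without both arrays none of the 45 respiratory chain genes retested changed its call. Transcripts of other tissues had been seen earlier in these data in 7 arrays (lung E20 1, 6 and 8, intestine E20 9, and intestine E16 6, 8 and 9), and values without them are given where they differ. By the liver genes used here, lung E20 1 and 8 (9258 and 10372 units) and intestine E16 9 (15049) stood apart. Intestine E20 9 was the highest of its group (16431). Lung E20 6 (959) and intestine E16 6 and 8 (2789 and 2222) did not stand apart by these genes.

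The promoters of 82 of the 90 genes were found in a RefSeq table for the GRCr8 assembly as windows of 300 bases, from 250 before to 50 after the annotated start. They are shown because binding motifs of factors that control mitochondrial genes are known from such windows, and because the genes below moved in groups. Each window was searched on both strands for GCGCA and GCGC parted by any 1 base (nuclear respiratory factor 1, NRF1), CCGGAAG (the ETS factor GABPA, also called nuclear respiratory factor 2), AAGGTCA (oestrogen-related receptors, ERR) and ACGTG (hypoxia-inducible factors, HIF). CCGGAAG and AAGGTCA can share the letters AAG, and CACGTG counts on both strands. The NRF1 letters were present in 20.7% of the respiratory chain promoters and 4.71% of all 27457 promoters of that length. GABPA letters were present in 30.5% and 9.22%, ERR letters in 13.4% and 4.37%, and HIF letters in 25.6% and 19.7%. Capitals below mark these motifs. Sdha, Uqcrc1 and Atp5mc3 are shown as genes that rose in intestine, Cox4i1 as the common form of its subunit, and Cox7a1 and Ndufa4l2 as the genes with the largest rises in intestine and in lung.
Sdha, chr1:30764303-30764602, plus strand: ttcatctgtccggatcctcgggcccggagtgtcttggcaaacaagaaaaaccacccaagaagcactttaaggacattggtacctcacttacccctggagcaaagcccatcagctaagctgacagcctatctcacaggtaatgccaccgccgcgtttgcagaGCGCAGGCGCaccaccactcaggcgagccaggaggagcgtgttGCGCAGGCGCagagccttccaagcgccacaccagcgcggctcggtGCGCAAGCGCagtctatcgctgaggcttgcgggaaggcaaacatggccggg
Uqcrc1, chr8:118467973-118468272, plus strand: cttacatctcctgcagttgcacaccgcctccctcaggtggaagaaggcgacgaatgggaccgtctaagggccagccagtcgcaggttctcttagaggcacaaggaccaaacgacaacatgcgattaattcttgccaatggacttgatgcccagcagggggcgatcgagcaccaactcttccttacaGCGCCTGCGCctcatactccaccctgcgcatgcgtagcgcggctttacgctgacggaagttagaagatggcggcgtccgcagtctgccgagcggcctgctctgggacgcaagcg
Atp5mc3, chr3:79220615-79220914, minus strand: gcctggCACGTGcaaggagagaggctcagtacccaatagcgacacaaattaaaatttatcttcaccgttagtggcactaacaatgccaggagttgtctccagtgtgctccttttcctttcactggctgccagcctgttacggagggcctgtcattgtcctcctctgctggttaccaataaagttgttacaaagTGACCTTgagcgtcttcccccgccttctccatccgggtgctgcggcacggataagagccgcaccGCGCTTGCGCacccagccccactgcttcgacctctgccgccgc
Cox4i1, chr19:65630133-65630432, plus strand: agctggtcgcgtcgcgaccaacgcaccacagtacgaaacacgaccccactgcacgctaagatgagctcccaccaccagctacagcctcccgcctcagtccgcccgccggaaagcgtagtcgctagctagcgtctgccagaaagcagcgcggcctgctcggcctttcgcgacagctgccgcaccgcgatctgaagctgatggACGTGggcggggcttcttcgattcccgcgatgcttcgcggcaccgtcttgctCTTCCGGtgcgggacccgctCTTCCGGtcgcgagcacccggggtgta
Cox7a1, chr1:94568966-94569265, plus strand: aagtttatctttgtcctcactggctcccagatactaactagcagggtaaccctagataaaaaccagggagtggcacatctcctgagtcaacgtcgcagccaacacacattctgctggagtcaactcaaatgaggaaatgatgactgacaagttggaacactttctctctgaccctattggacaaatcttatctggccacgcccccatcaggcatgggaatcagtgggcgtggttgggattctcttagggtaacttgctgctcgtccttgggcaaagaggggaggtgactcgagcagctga
Ndufa4l2, chr7:65241919-65242218, plus strand: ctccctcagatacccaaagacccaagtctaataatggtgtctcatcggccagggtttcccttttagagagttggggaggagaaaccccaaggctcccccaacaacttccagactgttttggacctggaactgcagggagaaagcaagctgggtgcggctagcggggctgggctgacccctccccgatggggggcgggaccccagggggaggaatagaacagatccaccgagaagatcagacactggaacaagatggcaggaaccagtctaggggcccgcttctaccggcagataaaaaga
The Sdha window holds the NRF1 letters 3 times, the first bases at -89, -46 and -1 from the start. That of Uqcrc1 holds them once, at -64, and that of Atp5mc3 once, at 7, with the ERR letters at -57 and the HIF letters at -244 and -243. Cox4i1 holds the GABPA letters at 3 and 23 and the HIF letters at -49. None of the 4 sets of letters is in the windows of Cox7a1 and Ndufa4l2, which says only that these letters are not in these windows. By complex, the NRF1 letters were in 6 of 32 promoters of complex I, 1 of 4 of complex II, 1 of 6 of complex III, 0 of 13 of complex IV and 5 of 14 of complex V.

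Between E16 and E20 more respiratory chain genes rose than fell in intestine, and more fell than rose in lung. In intestine, 16 of the 90 genes rose (17.8%) and 4 fell (4.44%), where 14.9% of all genes rose and 15.9% fell. All 16 that rose encode subunits, while 3 of the 4 that fell are assembly factors. In lung, 4 of the 90 rose (4.44%) and 9 fell (10.0%), both shares below the 13.6% and 12.7% of all genes. Of the 9 that fell, 5 are assembly factors. Among the 76 subunits alone, 3 rose and 4 fell in lung (3.95% and 5.26%). With the adjusted p alone and no minimum fold, 54 of 90 were higher and 17 lower at E20 in intestine (29.5% and 41.9% of all genes), and 11 were higher and 55 lower in lung (33.0% and 33.7%). At a minimum of 2-fold, 4 rose and 1 fell in intestine (8.79% and 6.26% of all genes), and 2 rose and 4 fell in lung (7.15% and 4.63%). Every E20 array lay above every E16 array for 38 genes in intestine and 5 in lung (17.3% and 15.2% of all genes), and below for 5 and 11 (20.3% and 15.9%). The median change over the 90 genes was 0.27 in intestine and -0.23 in lung, beside -0.086 and -0.006 over all genes. With quantile normalization, the intestinal median was 0.11, with 11 genes that rose and 5 that fell. Without the 7 arrays named above, 15 genes fell in lung.

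Blood, epithelial and dividing cell markers differed between the ages too. Of 6 erythroid genes 5 fell in intestine, with sums of 19230 to 34217 intensity units at E20 and 80988 to 111980 at E16, and 4 fell in lung (36258 to 51774 and 69769 to 84429); Hbz lay below the median of all values at E20 in both organs. All 5 intestinal epithelial genes rose in intestine, and all 4 lung epithelial genes rose in lung. The part of these cell types in the values of the respiratory chain genes was not tested.

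**Figure D1:**
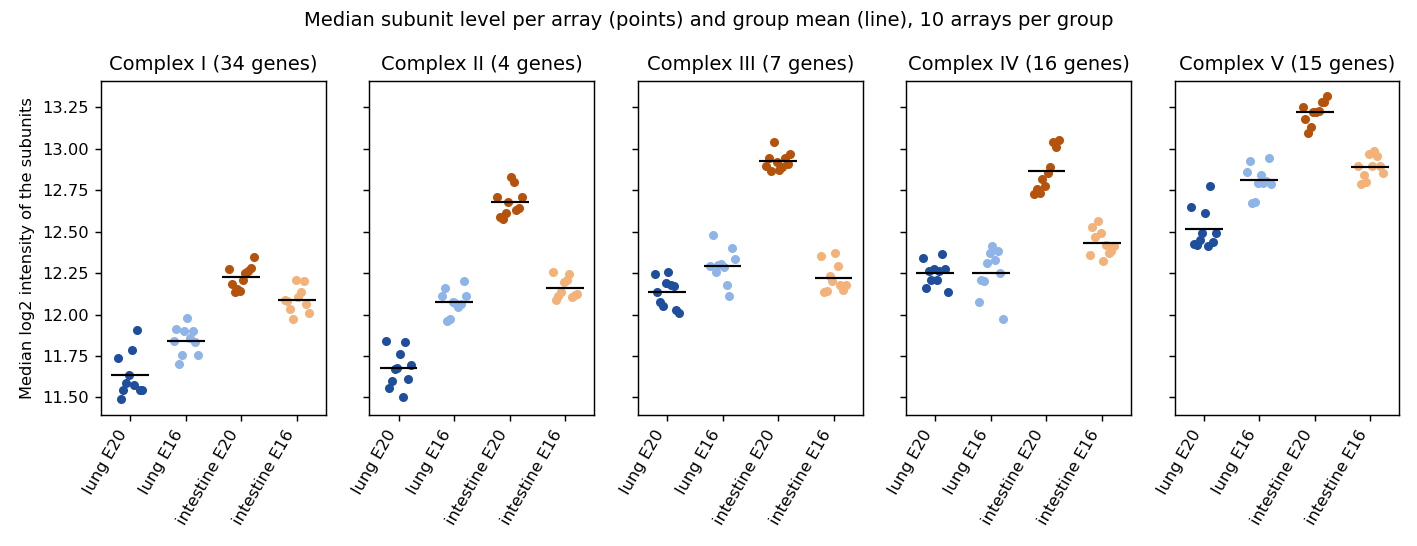
Median log2 intensity of the subunits of each complex on each array (points), with the mean of the 10 arrays of a group (line), for lung E20, lung E16, intestine E20 and intestine E16. Intestine E20 lies above intestine E16 without overlap in the panels of complexes II to V, and the groups overlap in that of complex I. For complex III the group means are 12.93 and 12.22, a wider gap than the median gene change of 0.32. The gene in the middle of its 7 differs between arrays, so this gap is not the change of each subunit. For complex IV the separation includes the tissue forms: without them the array medians overlapped, with 12.93 to 13.25 at E20 and 12.87 to 13.0 at E16; brightness differs between probe sets, so the panels are not to be compared in height.

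The median over the 76 subunits on an array summarises the groups. It was 11.74, 11.82 and 12.06 in lung E20 (lowest, median and highest of 10 arrays), 12.04, 12.11 and 12.20 in lung E16, 12.41, 12.51 and 12.60 in intestine E20, and 12.17, 12.23 and 12.30 in intestine E16. Intestine E20 stood above every other group without overlap. Lung E20 was the lowest, and its highest array, 6, reached into the range of lung E16. Lung E20 arrays 1, 6 and 8, which are among the 7 arrays named above, had subunit medians of 12.00 to 12.06, against 11.74 to 11.87 in the other 7 lung E20 arrays. Their liver gene sums were 9258, 959 and 10372 units, against 790 to 1064 in the others. They also had the lowest lung epithelial sums of the group (57568, 54431 and 58777) and the highest proliferation sums (14308, 13516 and 14908). The part of these cell types in the subunit medians was not tested. The spread of a gene within a group was small, with a median SD of 0.14 in lung E20, 0.12 in lung E16, 0.11 in intestine E20 and 0.11 in intestine E16. The largest SD was that of Cox4i2 in lung (0.48 at E20 and 0.73 at E16), of Cox7a1 in intestine E20 (0.40) and of Cox7b2 in intestine E16 (0.48).

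At an adjusted p under 0.05 in both organs, 32 of 90 genes (35.6%) were higher at E20 in intestine and lower at E20 in lung, compared with 873 of 14217 (6.14%) of all genes. The reverse pattern was found in 4 of the 90 (4.44%) and 9.50% of all genes. Another 6 of the 90 were higher in both organs and 8 lower in both, against 15.2% and 20.1% of all genes. The difference of the age changes (lung minus intestine) was itself tested: it was at least 1.5-fold and lower in 32 of the 90 genes and higher in 4, where 16.7% and 18.3% of all genes were. Without a minimum fold it was lower in 67 and higher in 8 (30.9% and 35.3% of all genes), and at 2-fold or more it was lower in 8 and higher in 3 (8.48% and 9.13%). Its median was -0.44 over the 90 genes and 0.032 over all genes. Ndufs1 alone both rose in intestine and fell in lung by at least 1.5-fold, and with quantile normalization its rise in intestine was under that limit.

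**Figure D2:**
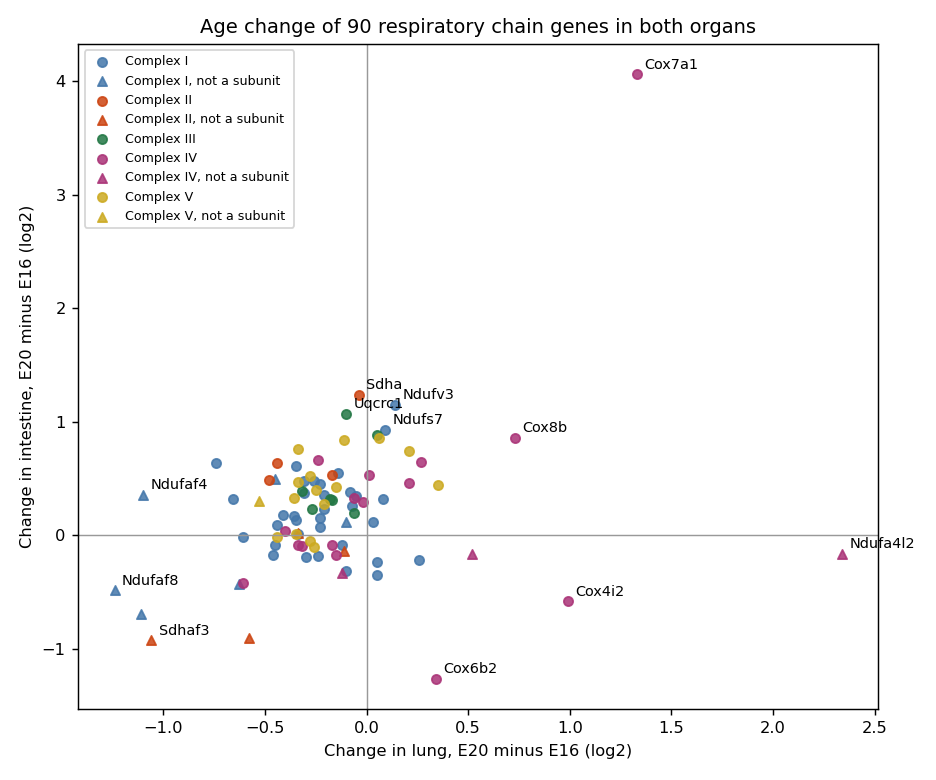
Change between E16 and E20 (log2, E20 minus E16) of each of the 90 genes in lung (horizontal axis) and intestine (vertical axis), coloured by complex, with triangles for genes that encode no subunit. Most points lie left of the vertical line and above the horizontal line, and Cox7a1 stands apart at 1.33 in lung and 4.06 in intestine.

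Complex I, which takes electrons from NADH, had 4 subunits that rose in intestine and none that fell, and 3 that fell in lung and none that rose. These are 11.8% and 8.82% of its 34 subunits, below the 14.9% and 12.7% of all genes. Its median change was 0.17 in intestine, 0.03 with quantile normalization, and -0.23 in lung. The 6 measured core subunits, which include those that hold the flavin and the iron-sulphur clusters, had medians of 0.48 and -0.28. The 28 accessory subunits had 0.15 and -0.23. Ndufs1, the largest core subunit and carrier of several iron-sulphur clusters, stood at 10.22, 10.45 and 10.58 in lung E20 and at 10.99, 11.15 and 11.42 in lung E16. In intestine it stood at 11.08, 11.28 and 11.53 at E20, against 10.36, 10.68 and 10.83 at E16. Neither pair of groups overlapped, and the ages were ordered oppositely in the organs. Ndufs1 fell by 0.74 in lung (SE 0.058, limma adjusted p = 1.16e-14) and rose by 0.64 in intestine (limma adjusted p = 6.79e-13; 0.57 and under 1.5-fold with quantile normalization), and the changes differed by -1.37 (SE 0.082, limma adjusted p = 2.7e-18).

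Ndufs7, the core subunit that passes electrons on to ubiquinone, stood at 12.24, 12.35 and 12.49 in intestine E20 and at 11.20, 11.35 and 11.68 in intestine E16. The groups did not overlap, and it rose by 0.93 (SE 0.055, limma adjusted p = 6.51e-19). In lung the values of both ages overlapped, with a change of 0.09. The core subunits Ndufv1 and Ndufv2, which form the NADH-binding part with Ndufv3, gave 0.48 and 0.37 in intestine and -0.26 and -0.31 in lung, under the 1.5-fold limit. Ndufs3 gave 0.48 in intestine and -0.31 in lung. Ndufs8 was the exception among the core subunits, with -0.08 in intestine and -0.12 in lung and adjusted p-values above 0.05 in both.

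Among the accessory subunits, Ndufv3 had the largest rise in intestine, with 11.60, 11.72 and 11.99 at E20, against 10.30, 10.57 and 11.23 at E16. The groups did not overlap (change 1.15, SE 0.085, limma adjusted p = 1.43e-15). Its second probe set gave -0.07, and the mean of both sets gave 0.54, so this rise rests on the set used. Ndufb7, an accessory subunit of the membrane arm, stood at 12.13, 12.27 and 12.42 in intestine E20 and at 11.53, 11.64 and 12.06 in intestine E16. It rose by 0.61 (SE 0.065, limma adjusted p = 4.26e-11), and by 0.50, under 1.5-fold, with quantile normalization; intestine E16 array 8 was the highest of its group. Ndufa9, at the joint between the arms of the complex, and Ndufa12 fell in lung without overlap: Ndufa9 stood at 10.57, 10.87 and 11.13 at E20, against 11.28, 11.49 and 11.75 at E16 (change -0.66, limma adjusted p = 4.39e-12). For Ndufa12 the change was -0.61 (SE 0.055, limma adjusted p = 5.29e-13). Against the trend, Ndufa1, Ndufb1, Ndufb11 and Ndufa7 were lower at E20 in intestine by less than 1.5-fold (-0.35, -0.31, -0.23 and -0.22). A second Ndufa7 probe set gave -0.0 there.

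Complex II, succinate dehydrogenase, links the citric acid cycle to the respiratory chain, and its 4 subunits gave the most uniform picture. All 4 were higher in intestine E20 than in intestine E16 without overlap, with a median change of 0.59, and 2 of them, Sdha and Sdhb, passed 1.5-fold. Over all genes, 17.3% were higher without overlap and 14.9% rose. With quantile normalization Sdhb gave 0.48 and did not pass. In lung the median change of the 4 was -0.30 and none passed. For all 4 the age change was lower in lung by at least 1.5-fold, beside 16.7% of all genes. The median difference was -1.02, with a range of -1.28 to -0.70. Sdha, the flavoprotein that oxidises succinate, stood at 11.85, 12.05 and 12.26 in intestine E20 and at 10.68, 10.84 and 10.99 in intestine E16. It rose by 1.24 there (SE 0.045, limma adjusted p = 3.6e-26), while lung E20, with 11.08, 11.12 and 11.27, overlapped lung E16, with 11.01, 11.17 and 11.35 (change -0.04, limma adjusted p = 0.406).

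Sdhb, the iron-sulphur subunit, stood at 12.79, 12.87 and 12.99 in intestine E20, against 12.13, 12.23 and 12.33 in intestine E16. In lung it stood at 11.47, 11.65 and 11.84 at E20, against 11.92, 12.08 and 12.24 at E16. Neither pair overlapped; it rose by 0.64 in intestine, and the lung change of -0.44 (SE 0.049, limma adjusted p = 1.82e-10) was under 1.5-fold. The membrane anchors Sdhc and Sdhd gave 0.53 and 0.49 in intestine and -0.17 and -0.48 in lung, and a second Sdhd probe set gave 0.35 and -0.46.

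Complex III passes electrons from ubiquinol to cytochrome c. Its 7 subunits were all higher in intestine E20 at an adjusted p under 0.05, as were 29.5% of all genes. Their median was 0.32, or 0.17 with quantile normalization. Of the 7, 2 rose by at least 1.5-fold (28.6%, beside 14.9% of all genes). In lung none passed (median -0.17). Uqcrc1, a core protein of the matrix side, stood at 12.59, 12.78 and 13.05 in intestine E20 and at 11.59, 11.73 and 11.97 in intestine E16. It rose by 1.07 without overlap (SE 0.063, limma adjusted p = 1.04e-18). Its lung values overlapped between ages, with a change of -0.10. Uqcr11, a small subunit, stood at 12.87, 12.90 and 13.04 in intestine E20 and at 11.94, 12.04 and 12.18 in intestine E16, and rose by 0.88 (SE 0.044, limma adjusted p = 2.89e-21). Uqcrc2, the partner of Uqcrc1, and Uqcrfs1, the Rieske iron-sulphur protein, gave 0.23 and 0.32 in intestine and -0.27 and -0.18 in lung, all under 1.5-fold; a second Uqcrc2 probe set gave -0.13 in intestine.

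Complex IV, cytochrome c oxidase, showed the widest spread, with the largest values in its alternative subunit forms. The 10 subunits without the tissue forms had a median change of 0.31 in intestine and -0.11 in lung. Of these 10, 2 rose in intestine, Cox4i1 and Cox5a (20.0%, beside 14.9% of all genes). Over all 16, the intestinal median was 0.17, and with quantile normalization it was -0.02. The 6 tissue forms (Cox4i2, Cox6a2, Cox6b2, Cox7a1, Cox7b2 and Cox8b) ranged from -1.26 to 4.06 in intestine and from -0.61 to 1.33 in lung. In intestine 2 of the 6 rose and 1 fell, and in lung 3 rose and 1 fell. Of all genes, 14.9% rose and 15.9% fell in intestine, and 13.6% rose and 12.7% fell in lung.

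**Figure D3:**
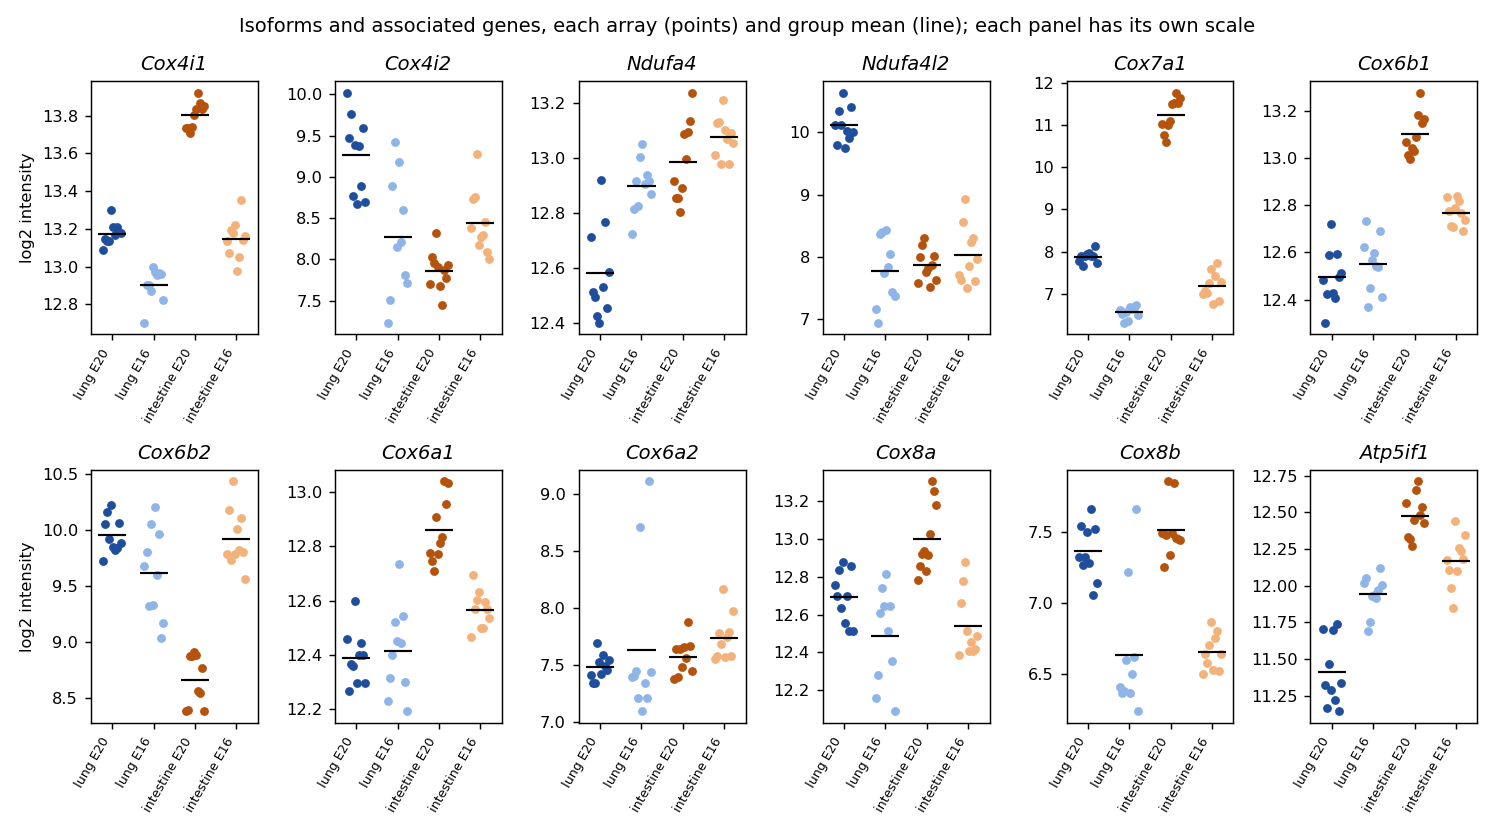
Log2 intensity on each array (points) and group mean (line) of complex IV subunit forms and of the associated genes Ndufa4l2 and Atp5if1, for lung E20, lung E16, intestine E20 and intestine E16, each panel with its own scale. Cox7a1 is highest in intestine E20, Ndufa4l2 and Cox4i2 are highest in lung E20, and 2 arrays of lung E16 stand apart in the panels of Cox6a2 and Cox8b.

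Cox7a1, the form of subunit VIIa known from heart and skeletal muscle, moved more than any other of the 90 genes. It stood at 10.60, 11.31 and 11.78 in intestine E20 and at 6.75, 7.16 and 7.72 in intestine E16. In lung it stood at 7.66, 7.90 and 8.13 at E20, against 6.31, 6.58 and 6.74 at E16. Neither organ showed overlap between ages. The rise was 4.06 in intestine (16.7-fold, SE 0.12, limma adjusted p = 1.23e-29) and 1.33 in lung (2.51-fold, limma adjusted p = 3.27e-13), and the difference between them was -2.73 (SE 0.17, limma adjusted p = 4.56e-18). Its group medians at E16 lay below the median of all values, and how much background those values hold was not measured.

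The 5 smooth muscle genes summed to 19422 to 37575 intensity units in intestine E20 and 18418 to 26968 in intestine E16, and 1 of the 5 rose there. Of 8 skeletal muscle genes 1 rose and 1 fell, with sums of 1282 to 1587 in intestine E20 and 1199 to 1704 in intestine E16, and 6 of the 8 lay below the median of all values in both groups. Of 9 cardiac genes 2 rose, with sums of 3218 to 4185 and 1886 to 2513, and Myh6, Myh7, Myl7, Myl4, Nppa and Ryr2 lay below that median in both. The brown fat genes Ucp1 and Cidea were below it in all 4 groups. All 5 intestinal epithelial markers rose, with the sums given above, and their part in the rise of Cox7a1 and of the other subunits was not tested. In whole tissue, more or fewer cells of a type and more or less RNA per cell cannot be told apart.

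Cox4i2, the form of subunit IV known from lung and regulated by oxygen, rose in lung. It stood at 8.67, 9.38 and 10.02 in lung E20 and at 7.24, 8.18 and 9.42 in lung E16. Those groups overlapped, and the rise was 0.99 (SE 0.21, limma adjusted p = 6.25e-05). In intestine it stood at 7.45, 7.90 and 8.32 at E20, against 8.01, 8.34 and 9.27 at E16, a change of -0.58 (limma adjusted p = 0.0128) that was just under 1.5-fold and passed it in 4 of the alternatives tried (-0.64 to -0.60). The common form Cox4i1 stood at 13.09, 13.17 and 13.30 in lung E20 and 12.70, 12.93 and 13.00 in lung E16, without overlap but under 1.5-fold (0.27). In intestine Cox4i1 rose by 0.65 (SE 0.042, limma adjusted p = 8.75e-18), and by 0.52, under 1.5-fold, with quantile normalization.

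Ndufa4l2, a relative of Ndufa4 known as a hypoxia-inducible gene, had the largest rise in lung. It stood at 9.76, 10.07 and 10.64 in lung E20 and at 6.95, 7.78 and 8.43 in lung E16. The groups lay far apart, and the rise was 2.34 (5.06-fold, SE 0.17, limma adjusted p = 1.34e-15). In intestine both ages overlapped, with 7.52, 7.84 and 8.30 at E20 and 7.50, 7.91 and 8.93 at E16. Ndufa4 itself gave -0.32 in lung and -0.09 in intestine. The 3 measured endothelial markers rose in lung, with sums of 5233 to 7335 in lung E20 and 2160 to 3226 in lung E16, and 3 of 5 smooth muscle markers rose there too (9235 to 11215 and 5020 to 7611). None of these 8 markers lay below the median of all values in lung; their part in the rises of Ndufa4l2 and Cox4i2 was not tested.

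Cox6b2, the form of subunit VIb known from testis, fell in intestine, with 8.38, 8.67 and 8.91 at E20, against 9.56, 9.81 and 10.43 at E16. The groups did not overlap (change -1.26, SE 0.12, limma adjusted p = 1.21e-12). The common form Cox6b1 gave 0.33 there, without overlap. In lung Cox6b2 gave 0.34 and Cox6b1 -0.06, both under 1.5-fold.

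Cox8b, the muscle form of subunit VIII, rose in both organs, and the call in lung was lost with a pseudocount of 32 (0.57). It stood at 7.06, 7.33 and 7.66 in lung E20 and at 6.24, 6.45 and 7.66 in lung E16, a rise of 0.73 (SE 0.12, limma adjusted p = 6.55e-07). In intestine it stood at 7.25, 7.46 and 7.86 at E20, against 6.50, 6.64 and 6.86 at E16, a rise of 0.86 (limma adjusted p = 1.84e-08). The lung groups overlapped only through lung E16 arrays 5 and 9, the arrays with heart transcripts, which had 7.22 to 7.66 where the other 8 arrays had 6.24 to 6.62. The difference of the changes was -0.13 (SE 0.17, limma adjusted p = 0.5). Cox6a2, the muscle form of subunit VIa, was likewise 8.71 and 9.11 on those 2 arrays and 7.09 to 7.45 on the other 8, and its age change passed no test in either organ (-0.15 in lung and -0.17 in intestine); without those arrays the lung value was 0.17. Both genes had means below the median of all values. The common forms Cox8a and Cox6a1 gave 0.46 and 0.29 in intestine and 0.21 and -0.02 in lung.

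Among the remaining complex IV genes, Cox7b2 was the dimmest of the 90 and fell by 0.61 in lung (SE 0.17, limma adjusted p = 0.00145), a call lost with quantile normalization (-0.43) and with a pseudocount of 32 (-0.25). Its common counterpart Cox7b gave -0.40 in lung and 0.04 in intestine. Cox6c gave -0.17 and -0.08, and the pseudogene Cox6c-ps1, whose probes may share sequence with Cox6c, -0.12 and -0.33. Cox7a2l, a relative of subunit VIIa that takes part in joining complexes III and IV, was higher in lung E20 (12.44, 12.52 and 12.66) than in lung E16 (11.81, 12.05 and 12.15) without overlap. Its lung change of 0.52 and its intestinal change of -0.16 were under 1.5-fold, but their difference was not (0.68, SE 0.061, limma adjusted p = 5.18e-13). Cox5a, the gene of subunit Va, is represented without a further probe set that names several genes, and rose by 0.66 in intestine. The probe set used was dim for a common subunit, with a mean of 8.86 over all arrays. The other common complex IV subunits had means of 12.39 to 13.27.

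Complex V had 4 subunits that rose in intestine (26.7%, beside 14.9% of all genes) and none that fell (15.9% of all genes). Its median change there was 0.43 (0.21 with quantile normalization), and none passed in lung (median -0.26). The 5 subunits of the catalytic head, F1, had a median of 0.74 in intestine and 0.06 in lung, and Atp5f1a, Atp5f1b and Atp5f1d rose in intestine. The 4 stalk subunits had a median of 0.34 in intestine and -0.26 in lung, and the 6 membrane subunits 0.17 and -0.30. Atp5f1b, the catalytic beta subunit, stood at 13.85, 13.95 and 14.22 in intestine E20 and at 12.93, 13.08 and 13.33 in intestine E16. It rose by 0.86 without overlap (SE 0.050, limma adjusted p = 5.48e-19), and its lung change was 0.06. Atp5f1a, the alpha subunit, stood at 13.33, 13.42 and 13.56 in intestine E20, against 12.56, 12.66 and 12.80 in intestine E16. In lung it stood at 12.42, 12.64 and 12.72 at E20, against 12.85, 12.93 and 13.03 at E16. Neither pair overlapped and the order was opposite; the rise in intestine was 0.76 (limma adjusted p = 1.77e-20), 0.57 and under 1.5-fold with quantile normalization, and the lung change was -0.34.

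Atp5mc3, a gene for the proton-carrying subunit c of the membrane ring, stood at 13.87, 13.93 and 14.00 in intestine E20 and at 12.97, 13.11 and 13.22 in intestine E16. It rose by 0.84 (SE 0.036, limma adjusted p = 1.29e-23) with an SD of 0.05 and 0.08 in the 2 groups. The other subunit c genes, Atp5mc1 and Atp5mc2, share probe sets with further genes and were left out. Atp5f1c, the gamma subunit, gave 0.47 in intestine and -0.34 in lung, and Atp5po, a subunit of the outer stalk, 0.52 and -0.28; a second Atp5po probe set gave 0.23 and 0.39. Atp5if1, the protein that inhibits ATP hydrolysis by the synthase, stood at 11.14, 11.33 and 11.74 in lung E20 and at 11.69, 11.95 and 12.12 in lung E16. Its lung change of -0.53 was under 1.5-fold and passed it in 3 alternatives (-0.66 to -0.59). In intestine it gave 0.30. A second Atp5if1 probe set gave 0.68 in intestine, over 1.5-fold, and -0.57 in lung. Another, whose name marks possible cross-hybridisation, gave 5.70 and 0.02.

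Of the 10 assembly factors, none rose and 3 fell in intestine, with a median of -0.28, and none rose and 5 fell in lung, with a median of -0.61 and all 10 changes negative. These counts compare with 15.9% and 12.7% of all genes that fell. Ndufaf8 stood at 9.48, 9.92 and 10.50 in lung E20 and at 10.98, 11.26 and 11.33 in lung E16. It fell by 1.24 without overlap (SE 0.085, limma adjusted p = 1.79e-16). Ndufaf4, needed early in complex I assembly, stood at 9.19, 9.46 and 10.01 in lung E20 and at 10.36, 10.66 and 10.82 in lung E16, and fell by 1.10 (SE 0.096, limma adjusted p = 2.03e-13). In intestine it gave 0.36, and the difference of -1.46 was the largest among the subunits and assembly factors of complex I.

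Ndufaf5, which modifies a core subunit of complex I, fell by 1.11 in lung (SE 0.079, limma adjusted p = 5.35e-16) and fell by 0.69 in intestine (limma adjusted p = 2.84e-10). Sdhaf3, an assembly factor for the iron-sulphur subunit of complex II, stood at 7.60, 7.90 and 8.40 in lung E20, against 8.73, 8.88 and 9.33 in lung E16. In intestine it stood at 8.13, 8.23 and 8.42 at E20, against 8.78, 9.23 and 9.38 at E16. Neither pair overlapped, with changes of -1.06 and -0.92. Sdhaf4, which acts on the flavoprotein subunit, fell by 0.90 in intestine (SE 0.10, limma adjusted p = 3.72e-10), opposite to Sdha, and gave -0.58 in lung, a fall of over 1.5-fold in 4 alternatives (-0.76 to -0.59). Ndufaf7 fell by 0.63 in lung. Of the cell division markers, all 6 proliferation genes fell in lung too, with sums of 9182 to 14908 in lung E20 and 21353 to 25843 in lung E16. In intestine 1 of the 6 fell (13804 to 18035 at E20 and 17940 to 20403 at E16). None of the 6 lay below the median of all values in any group, and their part in the falls of the assembly factors was not tested.

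Lung and intestine were next compared within each age. At E20, 51 of the 90 genes were lower in lung than in intestine by at least 1.5-fold and 3 were higher, where 16.7% and 14.3% of all genes were. The median of lung minus intestine was -0.63 over the 90 genes and -0.089 over all genes. In 60 of the 90 genes every lung array lay below every intestine array, compared with 18.6% of all genes, and in 4 every lung array lay above (15.5%). With the adjusted p alone, 78 were lower and 4 higher (42.5% and 30.6% of all genes), and at 2-fold or more 11 were lower and 3 higher (8.21% and 7.91%). At E16, 1 gene was lower in lung and none higher (8.41% and 5.08% of all genes), with a median of -0.17 beside -0.11 over all genes. With the adjusted p alone, 49 of the 90 were lower in lung at E16 and 9 higher (40.2% and 23.8% of all genes), and none passed 2-fold in either direction (3.0% and 2.13%). Arrays did not overlap in 11 genes that were lower and 3 that were higher (11.0% and 8.23% of all genes). These values share their arrays with the age changes above.

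**Figure D4:**
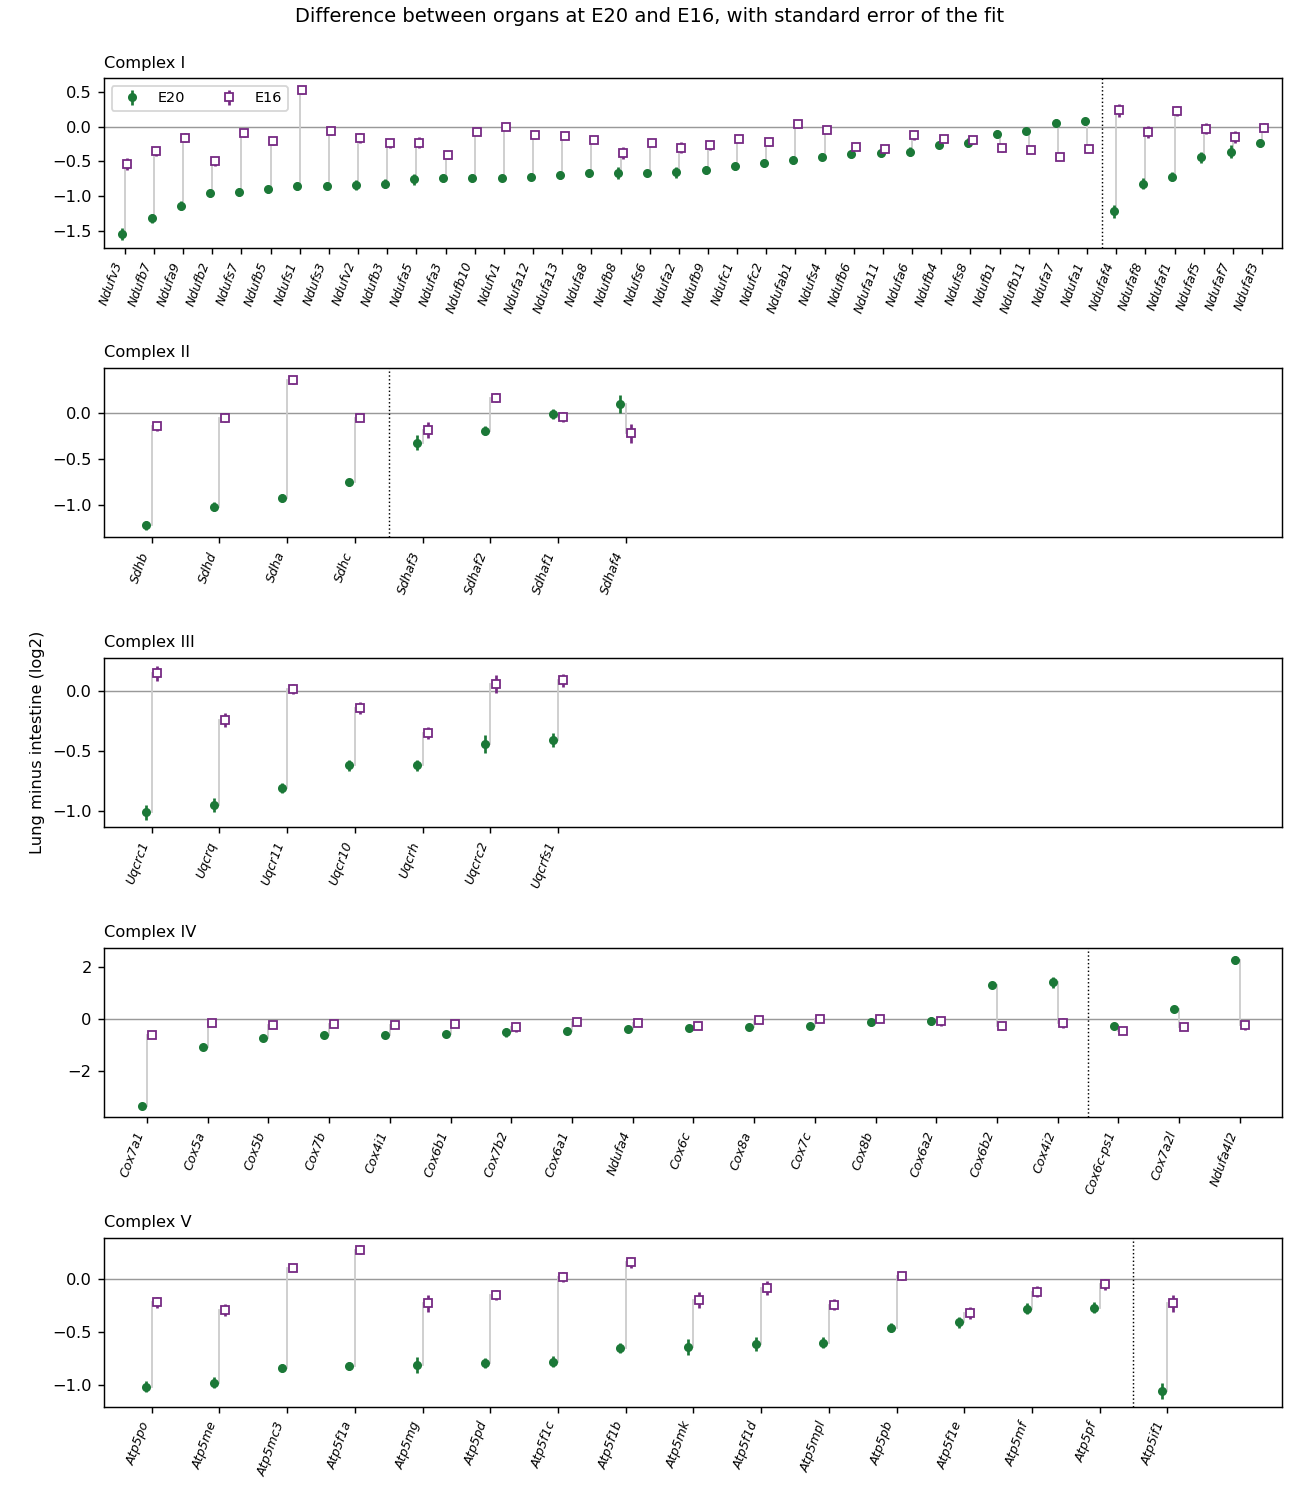
Difference between organs (lung minus intestine, log2) of each gene at E20 (filled circles) and E16 (open squares) with the standard error of the fit, by complex and ordered by the value at E20; genes right of the dotted line encode no subunit. At E16 most genes lie between -0.5 and 0, and at E20 most lie below -0.5.

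By complex, the median difference at E20 was -0.67 in complex I, -0.97 in complex II, -0.62 in complex III, -0.44 in complex IV and -0.65 in complex V. At E16 it was -0.21, -0.05, 0.02, -0.19 and -0.12 in the same order. All 4 subunits of complex II, 5 of 7 of complex III, 11 of 15 of complex V, 21 of 34 of complex I and 6 of 16 of complex IV were lower in lung at E20 by at least 1.5-fold. The share of all genes was 16.7%. Cox7a1 had the largest difference, with 7.66 to 8.13 in lung and 10.60 to 11.78 in intestine (-3.37, SE 0.12, limma adjusted p = 8.66e-27). Of the other genes lower in lung, the largest differences were those of Ndufv3 (-1.55), Ndufb7 (-1.32), Sdhb (-1.22), Ndufaf4 (-1.22), Ndufa9 (-1.14), Cox5a (-1.08) and Atp5if1 (-1.06). The second Ndufv3 probe set gave 0.24, and the Cox5a probe set was dimmer than those of the other common complex IV subunits. In complex V the outer stalk subunit Atp5po (-1.02, SE 0.052, limma adjusted p = 5.94e-21) and the membrane subunit Atp5me (-0.98) differed most, with -0.27 and -0.42 in their second probe sets, and in complex III Uqcrc1 (-1.01) and Uqcrq (-0.95).

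The 3 genes higher in lung at E20 were Ndufa4l2 (2.25, SE 0.17, limma adjusted p = 3.34e-15), Cox4i2 (1.40, SE 0.21, limma adjusted p = 1.41e-07) and Cox6b2 (1.29, SE 0.12, limma adjusted p = 6.05e-13). In each of the 3, no lung E20 array overlapped an intestine E20 array. At E16 the same genes gave -0.26, -0.17 and -0.30, with overlapping arrays. Cox7a1, the single gene called at E16 (-0.64, limma adjusted p = 1.17e-05), was under 1.5-fold with quantile normalization (-0.44), after centring (-0.57) and with a pseudocount of 32 (-0.51). Ndufs1 stood out at E16 in the other direction, with 10.99 to 11.42 in lung and 10.36 to 10.83 in intestine, no overlap and a difference of 0.53, under 1.5-fold; with centred arrays it was 0.60 and passed.

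Further mitochondrial genes were counted in lists written with earlier results of these data known. A list of 21 genes held enzymes of the citric acid cycle and of pyruvate dehydrogenase, which feed the chain with electrons. It also held kinases and phosphatases that regulate pyruvate dehydrogenase. Of the 21 genes, 11 rose and 1 fell in intestine (median 0.70), and 2 rose and none fell in lung (median -0.01). That is 52.4% and 4.76% in intestine and 9.52% and 0.0% in lung, where 14.9% and 15.9% of all genes rose and fell in intestine and 13.6% and 12.7% in lung. Ogdh, of the oxoglutarate dehydrogenase complex, stood at 11.86, 12.03 and 12.21 in intestine E20 and at 10.32, 10.61 and 11.11 in intestine E16, and rose by 1.33 (limma adjusted p = 7e-15). Mdh2, Cs and Idh3a, 3 enzymes of the cycle, rose by 0.95, 0.82 and 0.90 in intestine and gave -0.53, -0.42 and -0.34 in lung. Pdk2 and Pdk4, kinases that switch pyruvate dehydrogenase off, rose in both organs: Pdk2 by 1.48 in intestine and 0.96 in lung, and Pdk4 by 0.81 and 0.90. They are the 2 genes of the list that rose in lung. Pdk1, a further kinase of this kind, rose by 0.93 in intestine and gave -0.21 in lung. Pdp1, a phosphatase that switches pyruvate dehydrogenase on, was the 1 gene of the list that fell in intestine, by 1.04.

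**Figure D5:**
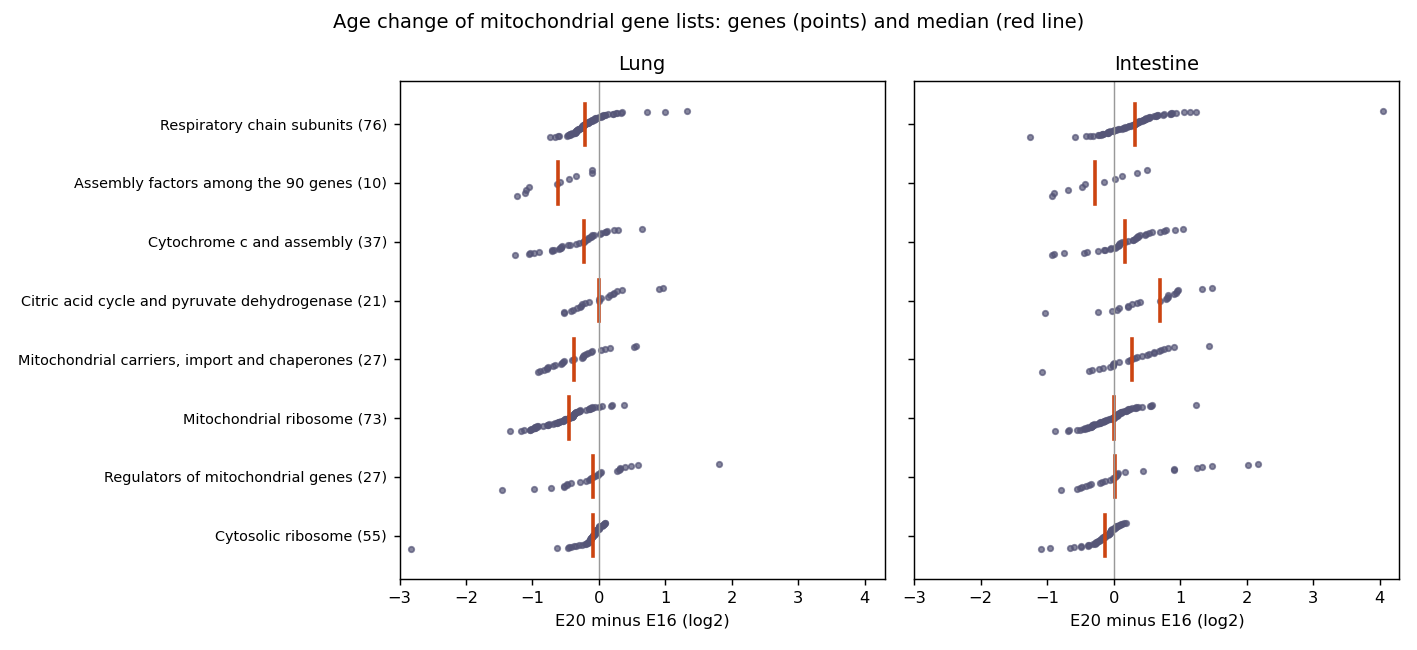
Change between E16 and E20 (log2, E20 minus E16) of each gene (points) in 8 lists, with the list median (red line), in lung (left) and intestine (right); the number of genes is in brackets. The mitochondrial ribosome has a median of -0.45 in lung and 0.00 in intestine, and the citric acid cycle list a median of -0.01 in lung and 0.70 in intestine.

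Of 73 genes of the mitochondrial ribosome, none rose and 27 fell in lung (median -0.45), and 1 rose and 3 fell in intestine (median 0.00). The share that fell was 37.0% in lung, where 12.7% of all genes fell, and 4.11% in intestine, where 15.9% did. Mrpl12, a protein of the large subunit, stood at 9.84, 10.08 and 10.62 in lung E20, against 11.33, 11.52 and 11.75 in lung E16, and fell by 1.34 (SE 0.075, limma adjusted p = 1.8e-19). Mrpl2 was the gene that rose in intestine (1.25, SE 0.050, limma adjusted p = 1.17e-24). Of 55 cytosolic ribosome symbols, none rose and 2 fell in lung (median -0.09), and none rose and 4 fell in intestine (median -0.13). The falls were 3.64% of the list in lung and 7.27% in intestine, below the 12.7% and 15.9% of all genes. That list also took in kinases named after a ribosomal protein: Rps6ka6 gave -2.83 in lung and Rps6ka2 gave -0.96 in intestine, and Rpl28 fell by 1.10 there.

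A list of 37 measured genes held Cyc1 and factors for assembly of the complexes, 4 of which are Sdhaf1 to Sdhaf4 above. The cytochrome c genes Cycs and Cyct were listed but not measured. Of the 37 genes, 5 rose and 3 fell in intestine (13.5% and 8.11% of the list). In lung 1 rose and 9 fell (2.7% and 24.3%). Over all genes, 14.9% rose and 15.9% fell in intestine, and 13.6% rose and 12.7% fell in lung. Cyc1, the cytochrome c1 of complex III, lies outside the symbols of the 90 genes and stood at 12.69, 12.78 and 12.92 in intestine E20 and at 11.88, 12.00 and 12.15 in intestine E16. It rose by 0.78 (limma adjusted p = 2.79e-18), and its lung change was -0.56. Bcs1l, which inserts the Rieske protein into complex III, fell by 1.27 in lung, and Coa7, an assembly factor of complex IV, rose by 1.05 in intestine and fell by 0.91 in lung. Of 27 carrier, import and chaperone genes, 8 rose and 1 fell in intestine (29.6% and 3.7%), and none rose and 8 fell in lung (29.6%). The shares of all genes to set beside these are those just given. Opa1, which shapes the inner membrane, rose by 1.44 in intestine; the chaperones Hspd1 and Hspe1 gave -0.89 and -0.92 in lung, both falls. Of 2 ADP/ATP carriers in the list, Slc25a4 fell by 1.08 in intestine and fell by 0.69 in lung. The other, Slc25a5, gave 0.50 in intestine and -0.24 in lung, under 1.5-fold.

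Among 27 regulators of mitochondrial genes, 7 rose and 1, Gabpb1 (-0.80), fell in intestine (25.9% and 3.7%, where 14.9% and 15.9% of all genes did). In lung 2 rose and 3 fell (7.41% and 11.1%, below the 13.6% and 12.7% of all genes). The list medians were 0.03 in intestine and -0.08 in lung. With the adjusted p alone, 9 were higher and 9 lower in intestine (29.5% and 41.9% of all genes). In lung 8 were higher and 12 lower (33.0% and 33.7% of all genes). Ppargc1b, the coactivator PGC-1beta, stood at 8.60, 9.23 and 9.71 in intestine E20 and at 6.62, 7.07 and 7.29 in intestine E16. It rose by 2.17 (4.51-fold, SE 0.11, limma adjusted p = 7.93e-21) and gave -0.20 in lung. Esrra, the oestrogen-related receptor alpha, stood at 9.07, 9.33 and 9.53 in intestine E20, against 7.80, 7.96 and 8.23 in intestine E16, a rise of 1.32 (SE 0.065, limma adjusted p = 1.65e-21). In both genes the groups did not overlap. Nrip1, a corepressor that opposes such receptors, rose as well (2.02), and so did Prkaa2, a catalytic subunit of the AMP-activated kinase (1.47). Ppargc1a, the better-known coactivator PGC-1alpha, gave -0.42 in intestine, under 1.5-fold.

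In lung the mitochondrial transcription factor Tfam stood at 10.07, 10.33 and 10.69 at E20, against 11.25, 11.32 and 11.43 at E16. It fell by 0.97 without overlap (SE 0.057, limma adjusted p = 1.3e-18). Pprc1, a coactivator related to PGC-1, fell by 1.46, and Nrf1, the factor whose motif was searched above, fell by 0.72. In intestine Tfam, Pprc1 and Nrf1 gave -0.51, -0.56 and -0.17, under 1.5-fold. Epas1, the hypoxia-inducible factor HIF-2alpha, stood at 11.88, 12.50 and 12.77 in lung E20 and at 9.81, 10.62 and 10.95 in lung E16. It rose by 1.81 in lung (SE 0.14, limma adjusted p = 8.74e-15) and by 1.26 in intestine (limma adjusted p = 1.86e-10). Hif1a gave -0.12 and -0.48, under 1.5-fold in both.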

How the data were processed

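RNA of 40 samples was measured on Affymetrix arrays. The deposited values are intensities made by the authors with RMA, per the submitters' processing notes, on a linear scale from 6.65 to 39901. The sources used here do not say if both organs were normalized in a single run. No detection calls were used, and the number of arrays limits the precision. All 40 columns were matched to samples by title, with 0 columns unmapped.

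log2 was taken here of the deposited intensities, since the values were linear where log2 values had been assumed. Of 31099 probe sets, 20826 named 1 gene, 436 named several and 9831 none in the platform annotation, and 57 control probe sets were left out. For each of 14217 genes the probe set with the highest mean was used, and 7 probe sets of respiratory chain genes that name several genes were left out. Respiratory chain genes had 11 further probe sets. Of these, 6 had the sign of the set used in each age change, and 5 in the difference of the age changes. For lung minus intestine 7 had it at E20 and 9 at E16. limma 3.58.1 in R 4.3.3 was fitted to the means of the 4 groups, with p-values adjusted over all genes. The fit was tested on simulated data. Named genes were the up to 3 called members with the largest change per complex and comparison, the isoform pairs, the complex II subunits, the core subunits, up to 5 members with opposite age changes, and up to 3 called genes per pathway list; others named were chosen after their values were seen. The members and lists were chosen with earlier results of these data known.

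The alternatives were quantile normalization, centring, array weights, the mean of all probe sets, brighter genes only, a pseudocount of 32, other fold limits, a replicate block, fits on fewer groups or arrays, and a mean-variance trend.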

Additional observations from a re-analysis of the deposited data

Results flagged for a closer look

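On single arrays, 8 values stood apart from the other 9 of their group by Dixon's test, of 200 groups tested, where chance flags about 1 in 20. Intestine E16 array 8 was the highest of its group for Ndufb7 (12.06), Ndufs3 (11.44), Atp5me (12.42), Cox7a2l (12.55) and Cox7b2 (6.13). Intestine E20 array 8 was the highest for Atp5f1b (14.22). Intestine E20 array 4 was the highest for Ndufv1 (11.89) and the lowest for Ndufaf1 (7.86).

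The age change differed between lung and intestine, by the test of the difference itself, in 29 of 45 named genes. It was higher in lung for Ndufa4l2 (2.50), Cox6b2 (1.60), Cox4i2 (1.57) and Cox7a2l (0.68). In complex I and its assembly factors it was lower in lung for Ndufaf4 (-1.46), Ndufs1 (-1.37), Ndufv3 (-1.01), Ndufb7 (-0.96), Ndufaf1 (-0.95), Ndufs7 (-0.85), Ndufs3 (-0.78), Ndufaf8 (-0.76), Ndufv1 (-0.74) and Ndufv2 (-0.68). In complex II it was lower for Sdha (-1.28), Sdhb (-1.07), Sdhd (-0.97) and Sdhc (-0.70), and in complex III for Uqcrc1 (-1.16), Uqcr11 (-0.83) and Uqcrq (-0.71). In complex IV it was lower for Cox7a1 (-2.73), and in complex V for Atp5f1a (-1.10), Atp5mc3 (-0.95), Atp5f1b (-0.81), Atp5f1c (-0.81), Atp5po (-0.80) and Atp5me (-0.69), with the inhibitor Atp5if1 at -0.83. Of these, the difference was under 1.5-fold with quantile normalization for Ndufv2 (-0.58), Uqcrq (-0.56) and Atp5me (-0.55). With the mean of all probe sets it was under 1.5-fold for Ndufv3 (-0.20), Atp5po (-0.32) and Atp5me (-0.43), and the second Ndufv3 probe set gave 0.61.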

How the results depend on the processing

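No value below changed direction in a called gene. Without a minimum fold, 54 genes passed upwards and 17 downwards in intestine, 11 and 55 in lung, 8 and 67 for the difference of the age changes, 78 lower in lung at E20, and 9 higher and 49 lower in lung at E16. With at least 2-fold the counts were 4 and 1 in intestine, 2 and 4 in lung, 8 lower for the difference, 11 lower in lung at E20 and 0 lower at E16. Among subunits only, 1 fell in intestine, 4 fell in lung and 2 were higher for the difference. With quantile normalization 11 rose and 5 fell in intestine against 16 and 4 without it. The medians in intestine were then 0.11 over all 90 genes and 0.03, 0.44, 0.17, -0.02 and 0.21 in complexes I to V. The medians of the difference were -0.34 over all and -0.33, -0.91, -0.41 and -0.45 in complexes I, II, III and V, and that of complex IV at E20 was -0.31. Quantile normalization moved the median of lung minus intestine at E16 over all genes to -0.002, against -0.108. At E16 no gene was lower in lung (0) with quantile normalization, after centring or with a pseudocount of 32, and 1 was higher after centring. With brighter genes only the complex IV median in intestine was 0.29, and with array weights the complex V median of the difference was -0.68. Without the 7 arrays named earlier (lung E20 1, 6 and 8, intestine E20 9, intestine E16 6, 8 and 9), 15 genes fell in lung. The medians of the difference were then -0.54 over all, -0.55 in complex I and -0.70 in complex V, and that of complex V at E20 was -0.77. The cause of these shifts was not tested. The shared replicate numbers were not taken as pairs, since not every same-numbered pair correlated above 0.1: 2 of 10 did for age in intestine, 5 for age in lung, 3 for organ at E20 and 7 for organ at E16. At E16 the median correlation was 0.173 for same-numbered arrays and -0.024 for others, and 4 of 10 arrays correlated best with their own number, a hint of pairing from the data there. With the replicate block the counts were 16 and 4 in intestine and 4 and 9 in lung, and the block changed no call of the 45 genes retested. Leaving out lung E16 arrays 5 and 9, chosen after seeing the data, gave 30 lower for the difference, against 32. Of the other comparisons of a named gene with an alternative, 2373 kept their side of the threshold, although 24 of these values, none of them called, changed sign; 21 lost the call and 16 gained it.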
